A study of Mus musculus with 23 samples.

Results

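The Slc25 carrier genes were described here in mouse liver. Members were all rows of the gene count table whose Ensembl identifier maps to a protein-coding gene with a symbol of the form Slc25a followed by a number, which gave 47 genes of 54838 in the table. Liver RNA came from C57BL/6J mice, an inbred laboratory strain, in 23 libraries and 6 groups. Batch 2 held 4 libraries each of mice given EPDR1, which is ependymin-related protein 1, FCN2, a lectin of the complement system named ficolin-2, or FSTL3, the activin-binding protein follistatin-like 3. Mice given LBP, which binds lipopolysaccharide, were in batch 1 with 3 libraries, numbered 2, 3 and 4. Each batch had 4 vehicle libraries of its own. These endocrine candidates were recombinant proteins, and the dose was 1 µg/g, injected 3 times at intervals of 1 day. The sources used here give no age, no make-up of the vehicle and no time of tissue collection. They also do not say that each library came from its own animal, so the spread behind the p-values may be technical in part. For the vehicles, the batch and the group cannot be told apart.

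SLC25 proteins are carriers that span the inner mitochondrial membrane, and each exchanges or moves a small molecule between the cytosol and the matrix. They supply oxidative phosphorylation with ADP and phosphate, and they carry the ornithine, aspartate, citrate and acylcarnitine on which the urea cycle, fatty acid synthesis and fatty acid oxidation of the liver depend. The symbol rule also takes in genes whose products lie elsewhere: Slc25a17 encodes a carrier of peroxisomes, and Slc25a46 a protein of the outer mitochondrial membrane that acts in its dynamics. The products of Ucp1, Ucp2 and Ucp3 belong to the same protein family, but their symbols fall outside the rule.

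Total counts per library ran from 773499 to 21892416, with a median of 3712802. Levels of a gene are given below in CPM, the count relative to the TMM-scaled library size. All 8 hepatocyte markers had reads in every group, and their summed level was 93090 to 126249 CPM in 22 libraries. LBP replicate 2 stood apart, with a hepatocyte sum of 56949 CPM and albumin at 0.211% of counts, against 5.26% to 8.36% in the other libraries. The markers behind this sum went both ways. Alb, Apob, Ttr, Cyp2e1 and Cps1 were lower there than in any other library, and Apoa1, Serpina1c and Ahsg were higher than in any other. The FSTL3 libraries also had a composition of their own. Protein-coding genes of the mitochondrial genome took 1.97% to 2.13% of their counts, against 7.36% to 11.8% in the vehicle of batch 2, and small structural RNAs took 0.667% to 0.753%, against 0.0056% to 0.00773%. Hepatocyte markers went both ways there too. Apob was at 21732 to 24051 CPM in the FSTL3 libraries, against 5640 to 11030 CPM in that vehicle. Apoa1, Ttr, Serpina1c, Cyp2e1 and Ahsg were lower than the vehicle in every FSTL3 library, and Alb and Cps1 overlapped it. In bulk tissue, fewer cells of a type and less RNA per cell cannot be told apart.

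Of the 47 genes, 38 passed the filter on low counts. The other 9 were not tested. Slc25a24 and Slc25a29 were the most abundant of these, with 220 and 176 counts summed over all libraries, and Slc25a35, Slc25a18 and Slc25a2 had 79, 65 and 63. Slc25a31, the ADP/ATP carrier of the testis, had 12 counts, Slc25a43 had 6 and Slc25a41 had 1. Slc25a54 had 0 counts of 126163256, which allows a level of up to 0.0238 CPM (3 counts over all libraries, counting error only). A pair of these low genes lay beside far more abundant members. Slc25a29 lies 162 bases from Slc25a47, on the other strand of chromosome 12, and Slc25a47 had 46032 counts. Slc25a41 lies 2056 bases from Slc25a23 on chromosome 17, and Slc25a23 had 19492 counts.

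Levels of different genes were compared per kilobase of counted exon. On this scale and as the mean of the 6 group means, Slc25a47 was the highest member at 144 CPM per kb, or 17.3% of the sum over members. Slc25a47 encodes a carrier found mainly in liver. It was followed by Slc25a1 (76.8 CPM per kb), the citrate carrier that exports acetyl units for lipid synthesis, Slc25a13 (75.2), the aspartate/glutamate carrier citrin, Slc25a39 (71.7), which takes glutathione into mitochondria, Slc25a5 (70.5), an ADP/ATP carrier, and Slc25a15 (65.1), the ornithine carrier of the urea cycle. The place of Slc25a1 rests on LBP replicate 2: without that library its mean was 61.8 CPM per kb, below Slc25a13, Slc25a5, Slc25a39 and Slc25a15, and that of Slc25a47 was 117.9. The order differed between groups. In the vehicle of batch 2, Slc25a5 led with 84.1 ± 10.7 CPM per kb (SD, n = 4), and Slc25a47 (77.4 ± 11.7) and Slc25a13 (73.8 ± 1.88) did not differ from it beyond their spread. In the vehicle of batch 1, Slc25a47 led with 203 ± 18 CPM per kb, well above Slc25a39 at 106 ± 17.1 and Slc25a1 at 89.4 ± 6.97. Slc25a13 was the aspartate/glutamate carrier of these livers: its relative Slc25a12 had 1.602 CPM per kb. Likewise Slc25a5 far exceeded Slc25a4, the ADP/ATP carrier of heart and muscle (2.53 CPM per kb).

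The members together took 0.421% ± 0.023 of all counts in the vehicle of batch 1 and 0.270% ± 0.0127 in the vehicle of batch 2 (n = 4 each). The share was 0.333% ± 0.0252 after LBP (n = 3), 0.250% ± 0.0185 after EPDR1, 0.237% ± 0.0163 after FCN2 and 0.324% ± 0.0131 after FSTL3 (n = 4 each). The vehicles did not overlap in this share. The FSTL3 libraries all lay above the vehicle of their batch, and the LBP libraries all lay below theirs (0.311% to 0.360% against 0.405% to 0.454%). Shares use all counts as the denominator, and so move with the mitochondrial and structural RNA given above, while CPM comparisons below are scaled by TMM.

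**Figure D1:**
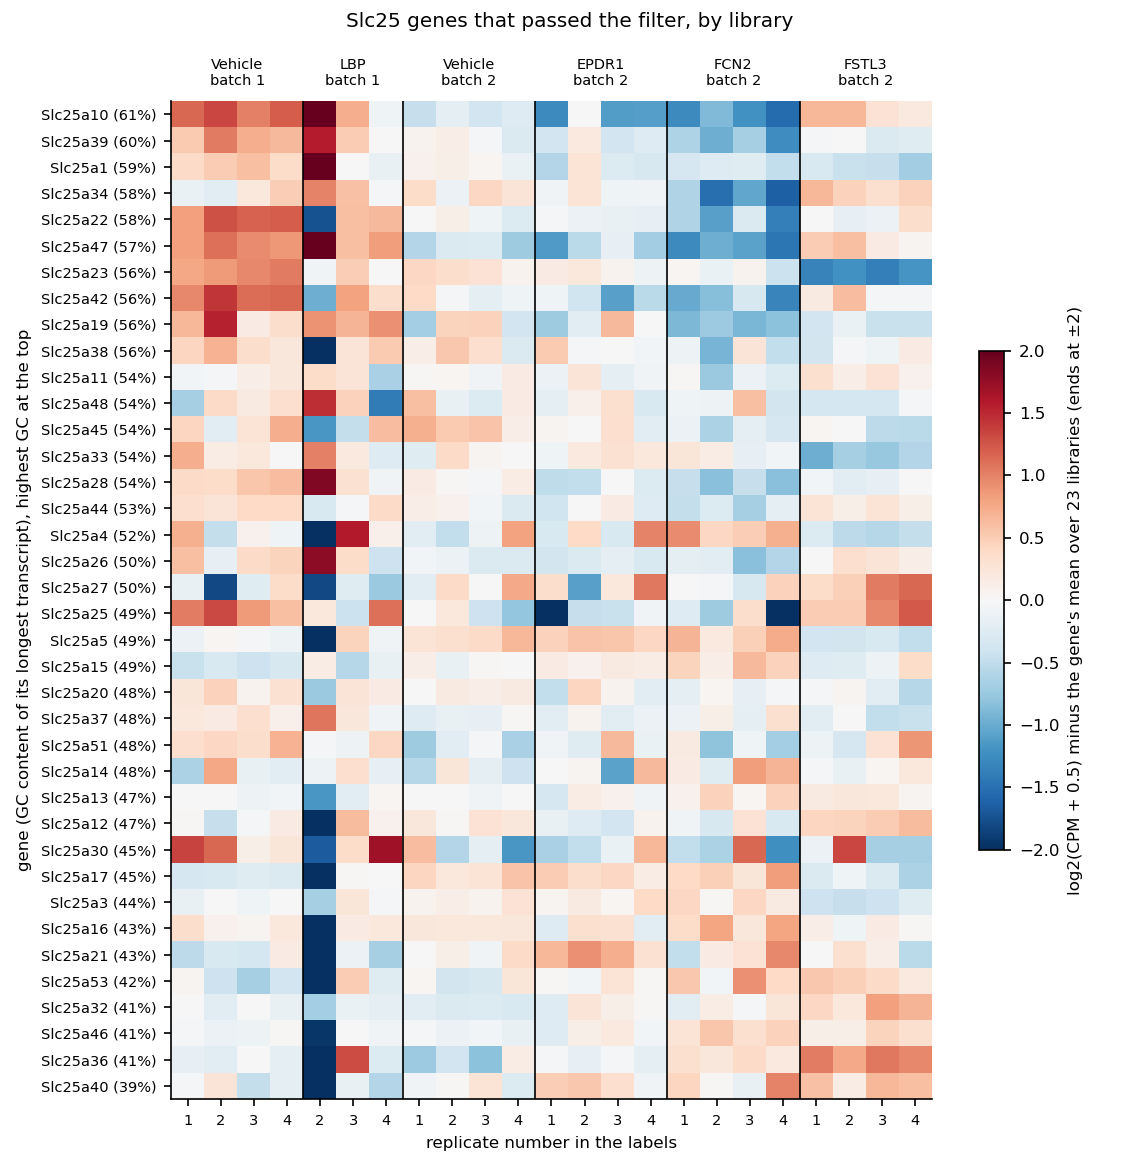
Level of the 38 Slc25 genes that passed the filter (rows, by GC content) in each of the 23 libraries (columns, by group and replicate number), as log2(CPM + 0.5) minus the mean of the gene over all libraries, with colours ending at ±2. LBP replicate 2 differs from every other column, and in the FCN2 columns genes at the top tend to be blue and genes at the bottom red.

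After FSTL3, 8 of 38 members passed the test against the vehicle of batch 2, beside 39.2% of all genes tested: Slc25a32, Slc25a36 and Slc25a47 rose, and Slc25a23, Slc25a33, Slc25a45, Slc25a3 and Slc25a17 fell (23.2% of all genes rose and 16% fell; edgeR's quasi-likelihood test, Benjamini-Hochberg adjusted p under 0.05 over 11969 genes). The share of members is below that of all genes. Of the 12 carriers of nucleotides and cofactors 2 rose and 3 fell, of the 5 carriers of phosphate, di- and tricarboxylates 1 fell, and none of the 10 carriers of amino acids, carnitine, S-adenosylmethionine and glutathione passed. The median log2 fold change was 0.11 over the members and 0.06 over all genes.

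Slc25a23 showed the change with the smallest p. It encodes an ATP-Mg/phosphate carrier that calcium activates, and lies at chr17:57043711-57059863 (GRCm38, minus strand). Its level was 59.98, 64.8, 58.7 and 66.9 CPM in the FSTL3 libraries and 202, 194, 186 and 159 CPM in the vehicle of batch 2. The FSTL3 values lay below those of all 19 other libraries, the next lowest being 112 CPM in FCN2 replicate 4. The log2 fold change was -1.56 ± 0.17 (SE; adjusted p = 3.2e-07), a level 2.96-fold lower. This gene was called in each of the 14 other settings tried and without any 1 of the 23 libraries, and against the vehicle of batch 1 its log2 fold change was -2.19 ± 0.17 (adjusted p = 9.38e-09). Over 3.17% of its exon bases it overlaps an antisense gene, Gm17168, and reads were counted without strand.

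Carriers of pyrimidine nucleotides and folate also moved. Slc25a36, a pyrimidine nucleotide carrier (chr9:97074961-97111157, minus strand), was at 8.73, 7.13, 8.95 and 8.34 CPM after FSTL3 and at 2.24, 2.96, 2.08 and 4.51 CPM in the vehicle of batch 2. The groups did not overlap, and the log2 fold change was 1.49 ± 0.34 (adjusted p = 0.0014). Its relative Slc25a33 (chr4:149744036-149774277, minus strand) went the other way, with 9.09, 11.4, 10.7 and 12.1 CPM against 15.4, 24.2, 19.1 and 18.4 CPM, again without overlap (log2 fold change -0.85 ± 0.22, adjusted p = 0.00335). Slc25a33 shares 14.9% of its exon bases with the antisense gene Gm13068, and its call was lost when each library's trend on exon length was removed (log2 fold change -0.43). Slc25a36 lost its call only with both the GC and the length trend removed (0.76, adjusted p = 0.0671). Slc25a32, which carries folate (chr15:39091231-39112716, minus strand), was at 61.0, 52.9, 80.9 and 73.4 CPM after FSTL3 and within 36.8 to 39.3 CPM in the vehicle. All 4 treated values were higher, with a log2 fold change of 0.83 ± 0.17 (adjusted p = 0.00044). Slc25a36 and Slc25a32 kept their direction and their call against the vehicle of batch 1 (1.16 ± 0.35, adjusted p = 0.0138, and 0.64 ± 0.17, adjusted p = 0.00553), as did Slc25a33 (-1.08 ± 0.22, adjusted p = 0.000634).

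The remaining calls were smaller. Slc25a3, the phosphate carrier that feeds ATP synthase (chr10:91116574-91124059, minus strand), was at 167, 161, 165 and 187 CPM after FSTL3 and at 231, 243, 231 and 270 CPM in the vehicle of batch 2. The groups did not overlap (log2 fold change -0.52 ± 0.18, adjusted p = 0.0243), but against the vehicle of batch 1 the difference missed the threshold (-0.32 ± 0.18, adjusted p = 0.188), and the call was also lost with no filter (-0.50, adjusted p = 0.164) and without FSTL3 replicate 2 or without vehicle replicate 4 of batch 2. Slc25a17, the peroxisomal carrier of coenzyme A and related cofactors (chr15:81318911-81360812, minus strand), was at 46.2, 53.4, 46.4 and 36.4 CPM after FSTL3 and at 76.2, 65.4, 68.5 and 84.7 CPM in the vehicle of its batch. The treated values lay around the 44.9 to 47.8 CPM of the vehicle of batch 1, against which the log2 fold change was -0.02 ± 0.28. Against its own vehicle it was -0.69 ± 0.27 (adjusted p = 0.0476). Slc25a45 (chr19:5877808-5885766, plus strand) was at 13.6, 13.3, 9.04 and 8.92 CPM against 21.9, 19.3, 19.9 and 14.6 CPM, with no overlap and a log2 fold change of -0.76 ± 0.25 (adjusted p = 0.0193). Its call was lost with the GC trend removed (-0.54, adjusted p = 0.109), with the exon length trend removed (-0.52), against the vehicle of batch 1 (-0.64, adjusted p = 0.0621), and without FSTL3 replicate 3 or 4 or vehicle replicate 1 of batch 2.

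Slc25a47 (chr12:108836046-108856815, plus strand) was at 447, 479, 355 and 329 CPM after FSTL3 and at 211, 258, 262 and 192 CPM in the vehicle of batch 2. The treated libraries were all higher than that vehicle and all lower than the vehicle of batch 1 (559 to 681 CPM). The log2 fold change was 0.80 ± 0.32 against the vehicle of batch 2 (adjusted p = 0.0499) and -0.59 ± 0.32 against that of batch 1 (adjusted p = 0.163). Being at the threshold, this call and that of Slc25a17 each held in 4 of the 23 fits that left out 1 library. That of Slc25a47 was also lost with DESeq2's size factors and with nuclear coding genes alone (adjusted p = 0.0694 and 0.0667). That of Slc25a17 was lost with limma-voom (0.0571), no filter (0.0765), the length trend removed (-0.48, adjusted p = 0.203) and both trends removed (0.0506); without LBP replicate 2 their adjusted p was 0.000162 and 4.71e-05.

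Some members of liver metabolism differed without passing the test. Slc25a5 was at 79.2, 79.9, 83.2 and 73.5 CPM after FSTL3 and at 125, 130, 135 and 164 CPM in the vehicle of batch 2. Slc25a10, the dicarboxylate carrier, was at 115, 116, 88.9 and 83.5 CPM against 52.3, 63.3, 55.6 and 60.7 CPM. Slc25a25, another ATP-Mg/phosphate carrier, was at 147, 147, 202 and 244 CPM against 103, 120, 77.2 and 60.03 CPM. Slc25a10 was called with the GC trend removed (0.99, adjusted p = 0.0018) and with only the compared libraries (0.72, adjusted p = 0.000232), and against the vehicle of batch 1 it turned to -0.70 ± 0.36 (adjusted p = 0.148). In none of these 3 genes did the groups overlap, and the log2 fold changes were -0.81 ± 0.40, 0.79 ± 0.37 and 1.04 ± 0.48 (adjusted p = 0.114, 0.0895 and 0.0904). Slc25a1 (-0.50 ± 0.35), Slc25a20, the carnitine/acylcarnitine carrier (-0.30 ± 0.21), Slc25a13 (0.18 ± 0.20), Slc25a42, the coenzyme A carrier (0.17 ± 0.28), Slc25a22, a glutamate carrier (0.09 ± 0.30), and Slc25a15 (-0.04 ± 0.19) had adjusted p values of 0.277 or more.

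LBP replicate 2 bore on these calls although it is in neither group, because all libraries share 1 estimate of the spread. Without it the common dispersion fell from 0.0774 to 0.0298, and 15 of 39 members tested were called after FSTL3, 8 higher and 7 lower, beside 56.8% of all genes (31.3% higher and 25.4% lower). Slc25a5 (adjusted p = 3.16e-06), Slc25a10 (0.00401) and Slc25a1 (0.00245) were among those added, and all 8 calls of the full data remained. The split of higher against lower calls moved with the scaling: it was 3 to 5 as tested, 6 to 4 with each library's GC trend removed (beside 42.4% of all genes, 24.9% higher and 17.4% lower), 4 to 2 with the exon length trend removed (28.6%, 16.7% and 11.8%), 6 to 2 with both removed (34.5% of all genes called) and 5 to 3 with no filter on low counts (23%). Fold changes after FSTL3 rose with counted exon length over the 38 members (Spearman rho 0.52) and over all genes tested (0.46, 11969 genes), as a description across genes that share their libraries. Markers of other cells differed too. After FSTL3, 7 sinusoidal endothelial markers summed to 464 to 563 CPM, against 164 to 202 CPM in the vehicle of batch 2. All 7 had reads in both groups. Stab1, Stab2, Kdr and Ptprb lay above that vehicle in every FSTL3 library, while Clec4g, Lyve1 and Pecam1 overlapped it. The sum of 9 Kupffer cell markers was 144 to 156 against 176 to 474 CPM. Among them Clec4f, Vsig4 and Adgre1 overlapped the vehicle, and the rest lay below it. The part of these markers, of exon length and of the composition of the FSTL3 libraries in the results was not tested.

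**Figure D2:**
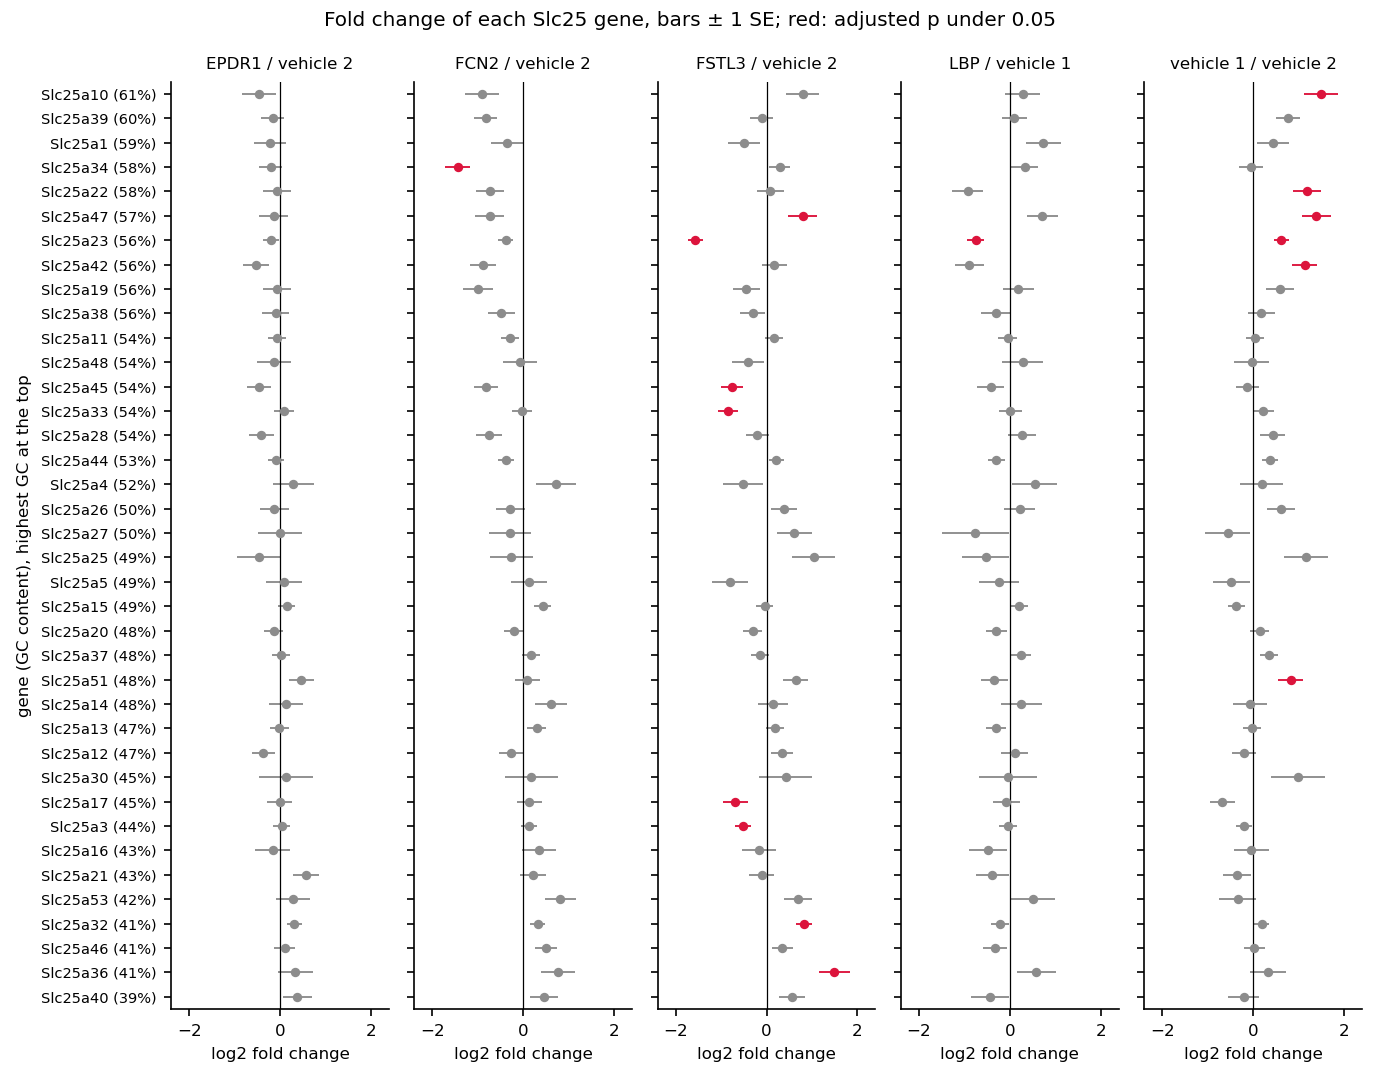
Log2 fold change ± 1 SE of each of the 38 Slc25 genes (rows, highest GC content at the top) in the 5 comparisons, from the edgeR fit, with red points at an adjusted p under 0.05. FSTL3 has 8 red points on both sides of 0, the 6 red points between the vehicles all lie to the right, and the FCN2 points drift from left to right as GC content falls.

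After FCN2, 1 of 38 members was called, beside 0.81% of all genes in either direction and 0.652% lower: Slc25a34 fell. At an unadjusted p under 0.05 there were 15 members, beside 2069 of the 11969 genes tested. Slc25a34 (chr4:141618824-141623821, minus strand) encodes a carrier whose substrate is not assigned here. It was a low gene, at 3.43, 1.6, 2.39 and 1.41 CPM after FCN2 and at 7.22, 5.01, 7.47 and 6.59 CPM in the vehicle of batch 2. The groups did not overlap, and the log2 fold change was -1.45 ± 0.28 (adjusted p = 0.0236), a level 2.73-fold lower. The call was lost with no filter on low counts, without FCN2 replicate 2 or 4, without vehicle replicate 1, 2 or 3 of batch 2, and with the GC trend removed (-0.98 ± 0.25, adjusted p = 0.367).

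The fold changes of the members after FCN2 followed the GC content of their transcripts. GC content ran from 39.4% in Slc25a40 to 60.6% in Slc25a10, with a median of 49.4% over the 38 tested, against 48.7% over all genes tested. Above that median 18 of 19 members had a negative fold change, and below it 16 of 19 had a positive one; of all genes, 77.6% above and 23.2% below were negative. Across members, Spearman's rho between fold change and GC content was -0.85 (38 genes that share their libraries), and across all genes it was -0.65 (11961 genes). The ends of 4 coding sequences illustrate this range of GC content, and were chosen for it after the values were seen. They are the last 90 coding bases before the stop codon, from GENCODE M21 transcripts on GRCm38, each within 1 exon, with G and C in capitals.

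Slc25a34: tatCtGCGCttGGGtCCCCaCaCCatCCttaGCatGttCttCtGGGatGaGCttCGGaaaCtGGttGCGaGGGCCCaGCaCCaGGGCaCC
Slc25a10: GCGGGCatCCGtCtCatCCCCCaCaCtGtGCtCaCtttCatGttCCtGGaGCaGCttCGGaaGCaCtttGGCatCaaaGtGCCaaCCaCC
Slc25a32: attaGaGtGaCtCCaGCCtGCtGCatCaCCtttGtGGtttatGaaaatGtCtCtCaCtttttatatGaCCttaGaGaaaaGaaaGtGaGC
Slc25a40: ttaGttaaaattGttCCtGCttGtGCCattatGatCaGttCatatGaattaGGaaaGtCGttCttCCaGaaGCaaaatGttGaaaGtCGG

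Slc25a34 (chr4:141620415-141620504, minus strand) has 53 G or C in these 90 bases and Slc25a10 (chr11:120498083-120498172, plus strand) has 51, while Slc25a32 (chr15:39095973-39096062, minus strand) has 35 and Slc25a40 (chr5:8453206-8453295, plus strand) has 32. Over the whole coding sequence, G or C stood at 68.2% of the last positions of codons in Slc25a34 and 73.5% in Slc25a10, and at 47.8% in Slc25a32 and 36.5% in Slc25a40. Their log2 fold changes after FCN2 were -1.45 and -0.90 for the first pair, and 0.32 and 0.46 for the second, and of the 4 only Slc25a34 passed the test. Slc25a40 overlapped its vehicle, at 4.19 to 9.89 CPM against 3.82 to 5.81 CPM. GC content of the last 90 coding bases ran from 34.4% to 63.3% over the 38 members, with a rho of -0.65 to the fold change, and not every gene follows it: Slc25a36 has 52.2% there and a fold change of 0.77. With the GC trend of each library removed, the same 4 values were -0.98, -0.24, -0.04 and 0.06. Slc25a40 and its close relative Slc25a39 stood at opposite ends, with Slc25a39 at 59.7% GC and -0.83.

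The libraries differed in GC content as a whole. The mean GC content of reads in nuclear coding genes, weighting each gene by its counts, was 46.8% to 47.5% in the FCN2 libraries and 47.9% to 48.0% in the vehicle of batch 2. With the GC trend removed, 0 of 38 members and 0 of 11969 genes were called by edgeR after FCN2, with 2 members and 860 genes at an unadjusted p under 0.05. Some dependence remained among the members (rho -0.40, and -0.06 over all genes). Above the median GC, 14 of 19 members were still negative, beside 54.9% of all genes. Whether the GC differences arose in the libraries or in the livers was not tested.

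**Figure D3:**
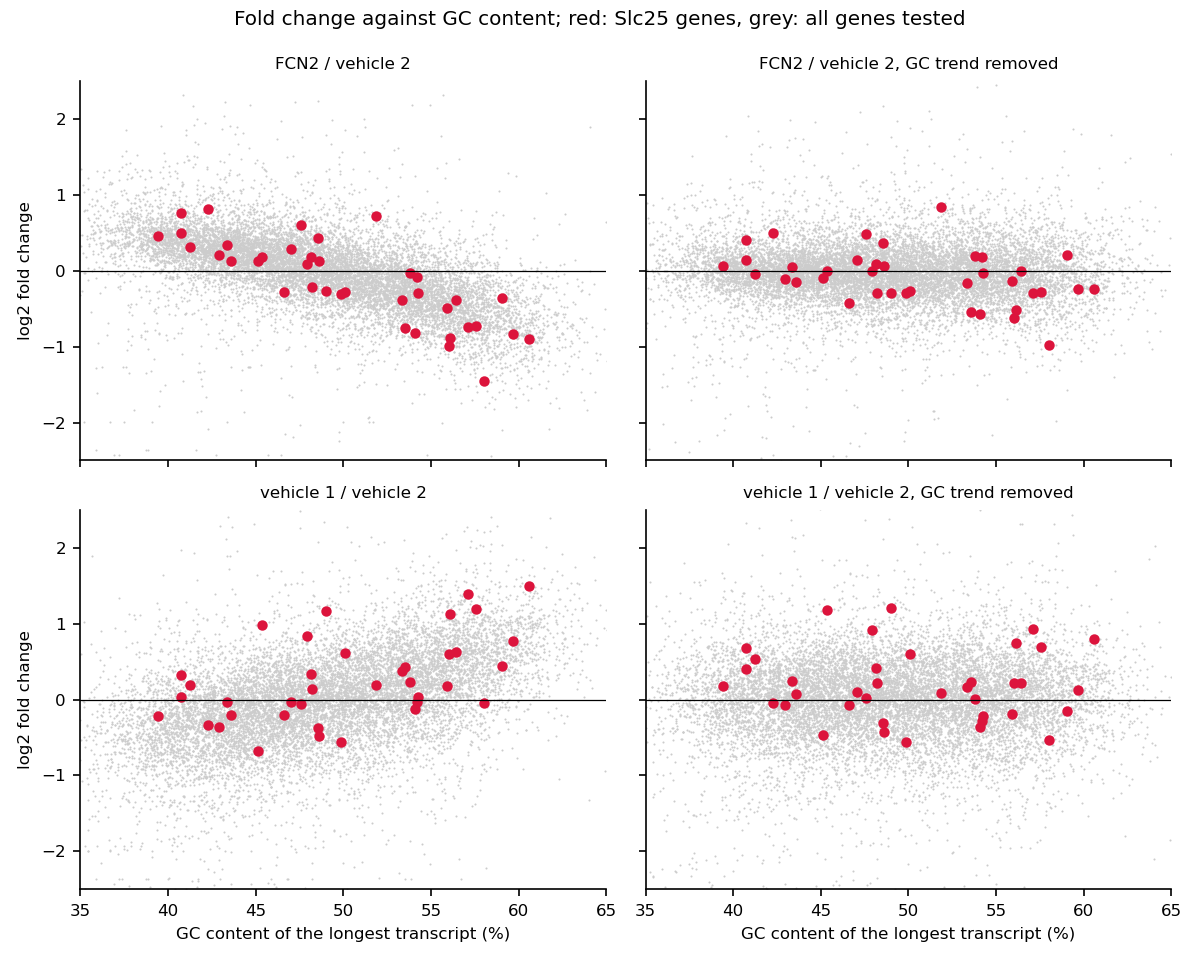
Log2 fold change against GC content of the longest transcript for FCN2 against its vehicle and for the 2 vehicles, as tested (left) and with the GC trend of each library removed (right). Red points are the 38 Slc25 genes and grey points all genes tested, of which 245 lie outside the axes; the slopes seen at the left are absent from the grey points at the right.

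Without LBP replicate 2, 13 of 39 members were called after FCN2, beside 18.9% of all genes (8.81% higher and 10.1% lower): Slc25a15 and Slc25a46 were higher, and 11 were lower. All 11 lower genes had a GC content above the median of the members. Of all genes in this fit, 77.6% above that median and 24% below it had a negative fold change. How many of all lower calls lay above it was not counted. The 11 lower members included Slc25a42 (21.2, 23.6, 34.4 and 16.9 CPM against 56.8, 41.7, 37.4 and 40.3 CPM), Slc25a10 (29.8, 39.2, 31.1 and 24.5 against 52.3, 63.3, 55.6 and 60.7 CPM) and Slc25a22 (50.3, 36.0, 62.5 and 29.4 against 76.2, 83.0, 72.2 and 63.9 CPM). In each of these the groups did not overlap. Slc25a47, at 131, 160, 150 and 116 CPM against 192 to 262 CPM, was also among them, with a log2 fold change of -0.74 (adjusted p = 0.00399). Slc25a15 rose, at 489, 395, 566 and 495 CPM against 394, 324, 365 and 358 CPM (0.43, adjusted p = 0.0262). With the GC trend removed as well, 0 of 39 members were called, beside 1.31% of all genes. An unadjusted p under 0.05 was found for 8 members and for 1961 of 12244 genes.

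Among the members named for their place in liver metabolism, Slc25a13 was at 299, 390, 292 and 392 CPM after FCN2 and at 269 to 284 CPM in its vehicle (0.29 ± 0.20, adjusted p = 0.478). Slc25a1 (-0.36 ± 0.35), Slc25a20 (-0.21 ± 0.21), Slc25a3 (0.12 ± 0.18) and Slc25a5 (0.13 ± 0.40) differed by about their SE or less. Slc25a25 was the least even of the members of liver metabolism, at 86.9, 62.8, 132 and 19.1 CPM (-0.26 ± 0.48).

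After EPDR1, 0 of 38 members were called by edgeR, beside 0% of all genes; 0 members and 493 genes had an unadjusted p under 0.05, and DESeq2 and limma-voom each called 0. The members with the smallest p were Slc25a21, the oxodicarboxylate carrier, and Slc25a42. Slc25a21 was at 18.4, 21.8, 19.1 and 14.1 CPM after EPDR1 and at 11.5, 12.3, 10.8 and 14.9 CPM in the vehicle, with an overlap between 1 treated and 1 vehicle library (0.57 ± 0.29). Slc25a42 was at 40.5, 32.3, 19.97 and 29.3 CPM against 56.8, 41.7, 37.4 and 40.3 CPM, overlapping likewise (-0.53 ± 0.28; both adjusted p = 1). Slc25a13 (-0.02 ± 0.20), Slc25a3 (0.03 ± 0.18), Slc25a22 (-0.06 ± 0.31), Slc25a5 (0.08 ± 0.40), Slc25a47 (-0.14 ± 0.32), Slc25a20 (-0.14 ± 0.21), Slc25a15 (0.15 ± 0.19) and Slc25a1 (-0.22 ± 0.35) all lay within 1 SE of 0. Slc25a10 (-0.47 ± 0.37) and Slc25a25 (-0.46 ± 0.48) had larger values, and in Slc25a25 replicate 1 was at 13.5 CPM, against 75.3 to 98.9 CPM in the other EPDR1 libraries. Small fold changes after EPDR1 also followed GC content (rho -0.67 over the members, -0.28 over all genes). Above the median GC, 16 of 19 members were negative, beside 59.7% of all genes. The EPDR1 and FCN2 comparisons share their 4 vehicle libraries.

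After LBP, 1 of 38 members was called, beside 7.7% of all genes in either direction and 0.969% lower: Slc25a23 fell. It was at 145, 213 and 151 CPM in LBP replicates 2, 3 and 4 and at 259, 275, 297 and 312 CPM in the vehicle of batch 1. All 3 treated values were lower, with a log2 fold change of -0.75 ± 0.18 (adjusted p = 0.0182), or 1.68-fold. Without LBP replicate 2 it was -0.65 ± 0.16 (adjusted p = 0.0444), as the 1 call among 39 members, beside 0.727% of all genes and 0.212% lower. The call was lost with no filter, with only the compared libraries, without vehicle replicate 3 or 4 of batch 1, with limma-voom (0 members, 3 genes called), with both trends removed (adjusted p = 0.0514), and with the GC trend removed and LBP replicate 2 left out (-0.43, adjusted p = 0.166).

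LBP replicate 2 set much of the LBP group. Its Slc25a5 was at 4.53 CPM, against 142 and 98.4 CPM in replicates 3 and 4 and 95.4 to 106 CPM in the vehicle. Slc25a16 and Slc25a12, at 2.27 CPM each, were also low there, and Slc25a4, Slc25a27, Slc25a36, Slc25a40 and Slc25a53 had 0 counts. Slc25a47 was at 1952 CPM in replicate 2, against 479 and 566 CPM in the other LBP libraries. Slc25a1 was at 716, 139 and 126 CPM in replicates 2, 3 and 4, and Slc25a10 at 420, 121 and 68.0 CPM. Of these, Slc25a1 and Slc25a10 lay above all vehicle values of batch 1 in replicate 2 and below them in replicates 3 and 4. Their log2 fold changes were 0.74 ± 0.38 and 0.28 ± 0.39 with replicate 2 and -0.55 and -0.80 without it, and that of Slc25a47 went from 0.72 ± 0.34 to -0.21. None of these passed the test. Without replicate 3 or replicate 4 of LBP, 5 and 4 members were called, beside 17.4% and 15.8% of all genes. Slc25a42 (-0.89 ± 0.31, adjusted p = 0.0818) and Slc25a22 (-0.92 ± 0.34, adjusted p = 0.0967) were lower with and without LBP replicate 2, which held 21.5 and 22.7 CPM of them. Their size was not steady. Over the fits that left out 1 library, their log2 fold changes ran from -1.26 to -0.56 and from -1.22 to -0.50. That of Slc25a22 was -0.50 without LBP replicate 2. Slc25a13 (-0.31 ± 0.22), Slc25a20 (-0.30 ± 0.23), Slc25a15 (0.21 ± 0.20), Slc25a25 (-0.53 ± 0.52), Slc25a5 (-0.24 ± 0.44) and Slc25a3 (-0.04 ± 0.19) had adjusted p values of 0.45 or more.

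Summed levels of acinar, erythroid and Kupffer cell markers were high in LBP replicate 2, and that of pancreatic acinar markers also in replicate 4. Not every marker of a list went with its sum. The summed level of 12 acinar markers was 2433, 21.5 and 772 CPM in LBP replicates 2, 3 and 4 and 7.78 to 101 CPM in the vehicle. Reads of all 12 were present in both groups. In replicate 2, Cela2a, Cpb1 and Amy2b lay within the range of that vehicle, and the other acinar markers above it. Erythroid markers summed to 2738 CPM in replicate 2, and to 374 and 297 CPM in replicates 3 and 4, against 234 to 370 CPM in the vehicle. In replicate 2, Alas2 lay below that vehicle, at 3.4 CPM against 93.6 to 122 CPM, and the other erythroid markers above it. Kupffer cell markers summed to 1258, 202 and 340.2 CPM in the same order, against 296 to 410.3 CPM. In replicate 2, C1qa, C1qb, Marco and Clec4f lay above the vehicle, and Cd5l, Timd4, Vsig4, C1qc and Adgre1 below it. With replicate 2, rho between fold change after LBP and GC content was 0.14 over the members and -0.05 over all genes. Without replicate 2, fold changes fell with GC content (-0.61 over 39 members, -0.39 over all genes). The mean GC content of nuclear coding reads was 51.8%, 48.7% and 48.3% in LBP replicates 2, 3 and 4, and 48.8% to 49.2% in the vehicle. The part of these markers in the LBP values was not tested.

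**Figure D4:**
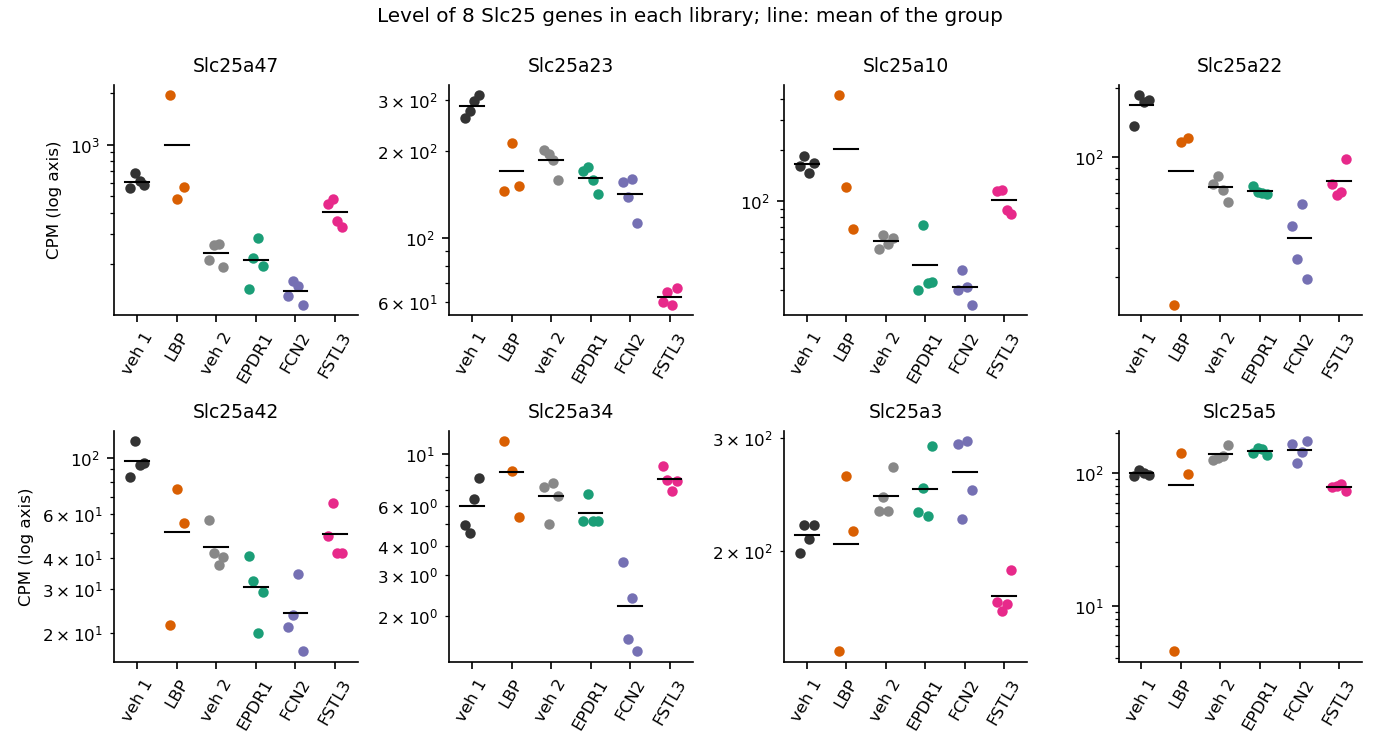
Level in CPM (log axes) of 8 Slc25 genes in each library, with a line at the mean of each group. Slc25a23 is lowest in the 4 FSTL3 libraries, and Slc25a47, Slc25a10, Slc25a22 and Slc25a42 are higher in the vehicle of batch 1 than in that of batch 2. In Slc25a47, Slc25a10, Slc25a22, Slc25a42 and Slc25a5, 1 LBP library lies apart from the other 2.

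Between the vehicles, 6 of 38 members were called, beside 12.2% of all genes (6.76% higher in batch 1), and all 6 were higher in batch 1: Slc25a47, Slc25a10, Slc25a42, Slc25a22, Slc25a23 and Slc25a51. Slc25a47 was at 559, 681, 609 and 578 CPM in batch 1 and at 211, 258, 262 and 192 CPM in batch 2. Its log2 fold change was 1.39 ± 0.32 (adjusted p = 0.00753), or 2.63-fold, and it was called in all 13 other settings and without any 1 of the 23 libraries. Slc25a10 (chr11:120491840-120499187, plus strand) was at 161, 184, 146 and 168 CPM against 52.3, 63.3, 55.6 and 60.7 CPM, the largest fold change of the members (1.5 ± 0.37, adjusted p = 0.0119). With the GC trend removed these 2 values were 0.93 (adjusted p = 0.0221) and 0.81 (adjusted p = 0.045), and with the length trend removed as well Slc25a10 missed the threshold (0.83, adjusted p = 0.056). Over 6.6% of its exon bases Slc25a10 overlaps the antisense gene Gm11788.

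Slc25a42 (chr8:70184340-70212305, minus strand) was at 83.8, 116, 94.0 and 95.3 CPM in batch 1 and at 56.8, 41.7, 37.4 and 40.3 CPM in batch 2. Slc25a22 (chr7:141429744-141437892, minus strand) was at 137, 187, 175 and 179 CPM against 76.2, 83.0, 72.2 and 63.9 CPM. In both genes every library of batch 1 was higher, with log2 fold changes of 1.14 ± 0.28 and 1.19 ± 0.31 (adjusted p = 0.0119 and 0.015). With the GC trend removed they missed the threshold (0.75, adjusted p = 0.167, and 0.70, adjusted p = 0.287), while without LBP replicate 2 as well both passed it at like values (0.74, adjusted p = 0.00389, and 0.69, adjusted p = 0.00102). Slc25a23, at 259 to 312 CPM against 159 to 202 CPM (0.63 ± 0.17, adjusted p = 0.0174), lost its call with the GC trend removed (0.22, adjusted p = 0.571), with no filter, and without vehicle replicate 4 of either batch. Unlike Slc25a42 and Slc25a22, it did not pass with the GC trend removed and LBP replicate 2 left out (0.22, adjusted p = 0.146). Slc25a51, which carries NAD into mitochondria (chr4:45395923-45408766, minus strand), was at 87.3, 92.4, 89.2 and 113 CPM against 42.3, 59.7, 68.1 and 44.1 CPM (0.84 ± 0.28, adjusted p = 0.0499). Its call at the threshold held in 8 of the 23 fits that left out 1 library. It was kept with the GC trend removed (0.92, adjusted p = 0.0453) and lost with DESeq2's size factors, no filter, the stricter filter, the length trend removed, nuclear coding genes alone and both trends removed (adjusted p from 0.0502 to 0.132).

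Members with high GC content tended to be higher in batch 1, as did other genes with high GC content. Of the 19 members above the median GC, 15 were higher in batch 1, and of the 19 below, 8 were higher. The median log2 fold change of the members was 0.43 above and -0.04 below, beside 0.28 and -0.22 over all genes. Lower in batch 1 were 4 members above that median and 11 below it, beside 29.3% and 66.9% of all genes. Spearman's rho between fold change and GC content was 0.52 over the members and 0.51 over all genes, and the mean GC content of nuclear coding reads was 48.8% to 49.2% in batch 1 against 47.9% to 48.0% in batch 2. With the GC trend removed, 4 of 38 members were called (Slc25a47, Slc25a10, Slc25a51 and Slc25a32), all higher in batch 1, beside 6.02% of all genes (2.88% higher), and rho was -0.05. Without LBP replicate 2, 14 of 39 were called, 11 higher and 3 lower in batch 1, beside 30.3% of all genes (15.4% higher and 14.9% lower); the 3 lower were Slc25a17, Slc25a15 and Slc25a5. Slc25a25 was at 211, 260, 186 and 157 CPM in batch 1 and at 60.03 to 120 CPM in batch 2 without passing the test (1.17 ± 0.48, adjusted p = 0.119). Slc25a13 (-0.03 ± 0.20), Slc25a20 (0.14 ± 0.21), Slc25a3 (-0.20 ± 0.18), Slc25a15 (-0.37 ± 0.19), Slc25a1 (0.44 ± 0.35) and Slc25a5 (-0.48 ± 0.40) had adjusted p values of 0.208 or more. By role, the 6 calls between the vehicles were 3 of the 12 carriers of nucleotides and cofactors (Slc25a42, Slc25a23 and Slc25a51), 1 of the 5 carriers of phosphate, di- and tricarboxylates (Slc25a10), 1 of the 10 carriers of amino acids and related molecules (Slc25a22), and Slc25a47.

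The mitoferrins, the relatives of the uncoupling proteins and Slc25a46 gave 0 calls with edgeR over all libraries in the 5 comparisons. Only Slc25a28 and Slc25a46, both after FCN2, had an unadjusted p under 0.05, beside 2069 of 11969 genes there. The genes named here were chosen after their values were seen. Slc25a37, the mitoferrin of red cell precursors, was at 39.1 ± 3.39 CPM in the vehicle of batch 2 and 49.5 ± 3.42 CPM in that of batch 1, and its relative Slc25a28 was lower, at 10.3 ± 0.679 and 13.7 ± 1.28 CPM (SD, n = 4 each). In FCN2 libraries Slc25a28 was at 5.18 to 6.88 CPM, below the 9.55 to 10.96 CPM of the vehicle (-0.75 ± 0.28, adjusted p = 0.17; 0.00537 without LBP replicate 2). Slc25a46 was at 70.1 to 85.6 CPM after FCN2 and at 52.4 to 57.03 CPM in the vehicle, again without overlap (0.50 ± 0.23, adjusted p = 0.268; 0.00424 without LBP replicate 2). Slc25a30 varied widely within groups: it ran from 16.9 to 90.3 CPM after FCN2, from 25.4 to 103 CPM after FSTL3 and from 17.7 to 62.5 CPM in the vehicle of batch 2. Its SE of 0.58 to 0.64 in the 5 comparisons is the widest of the members given here, and all its groups overlapped in range.

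The 2 vehicles also bear on FSTL3, since the choice of vehicle moved members both ways. Against the vehicle of batch 1, 10 members were called after FSTL3, 3 higher and 7 lower, beside 31.9% of all genes (18.7% higher and 13.2% lower), and 4 of the 8 calls against its own vehicle were among them in the same direction. Slc25a22 and Slc25a42, near 0 against the vehicle of batch 2, were lower against that of batch 1 (-1.11 ± 0.31, adjusted p = 0.00799, and -0.97 ± 0.28, adjusted p = 0.0104). The 2 FSTL3 comparisons share the FSTL3 libraries.

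Genes that work beside the carriers were described from lists. Of 20 tested genes for mitochondrial transport outside the symbol rule, 1 rose and 6 fell after FSTL3, beside the 23.2% and 16% of all genes given above. Sfxn5, a sideroflexin, rose by 1.09 ± 0.21 on the log2 scale, and Mpc2, a subunit of the pyruvate carrier (-0.65 ± 0.17), Mtch2 (-0.60 ± 0.17), Vdac3, an outer membrane channel (-0.58 ± 0.16), and Letm1, a cation exchanger, and Micu2 and Smdt1, parts of the calcium uniporter complex, fell (-0.88 ± 0.25, -0.52 ± 0.17 and -0.96 ± 0.18). Ucp2, whose product is a relative of the Slc25 carriers, was the 1 gene of the list called after FCN2 (-0.95 ± 0.21, adjusted p = 0.0395; -0.64 and adjusted p = 0.476 with the GC trend removed). Between the vehicles, where 12.2% of all genes were called, Ucp2 was higher in batch 1 (1.11 ± 0.20), and Mtch2, Vdac3 and Smdt1 were lower. Mtch2 missed the threshold there with the GC trend removed (-0.27 in place of -0.60, adjusted p = 0.278). Mtch2, Vdac3 and Smdt1 are also among the falls after FSTL3 given above, and Mtch2 had -0.60 in both comparisons. Values of the lists after FSTL3 against the vehicle of batch 1 are not given here. Of the 10 tested genes for the import of carrier proteins, Agk and Tomm20 rose after FSTL3, and Timm29, Timm9 and Tomm22 fell, again beside 39.2% of all genes, while Tomm20 was the 1 called between the vehicles, higher in batch 1 (0.57 ± 0.17). Of 19 enzymes that use what the carriers move, Mdh2, mitochondrial malate dehydrogenase (-1.03 ± 0.20), and the folate enzymes Mthfd2 (-1.58 ± 0.54) and Shmt2 (-0.75 ± 0.17) fell after FSTL3, where 16% of all genes fell. None of the 3 lists had a called gene after EPDR1 or LBP in this test. At an unadjusted p under 0.05 were 1, 0 and 0 genes of the lists after EPDR1 and 5, 3 and 2 after LBP. Over all genes these counts were 493 and 2725.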

How the data were processed

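Raw counts per gene were used as the authors deposited them. The submitters' processing notes list STAR 2.6.0c and the build GRCm38. Per the file headers, featureCounts 1.6.3 summed exons by gene with the GTF of Ensembl release 95, in a command without options for strand, read pairs or multi-mapping reads. Genes were annotated from GENCODE M21, and GC content is that of the longest transcript. Genes kept by filterByExpr (11969) entered 1 fit of all 23 libraries with a mean per group (edgeR 4.0.16, robust quasi-likelihood, TMM scaling, R 4.3.3). A gene was called where its adjusted p (Benjamini-Hochberg) was under 0.05. The SE is the log2 fold change over the square root of F. GC or exon length trends were removed with a spline (5 degrees of freedom) per library, used as an offset. The script was tested on simulated data. All replicate pairs differed by more than sampling noise, with a chi-square of at least 2.27 for each degree of freedom. Values are given for called members (at most 6 per comparison and direction), for 11 members of liver metabolism, and for the 2 with the smallest p where none was called. Members and lists were chosen with earlier results of these data known. Settings tried were DESeq2 1.42.0, limma-voom (limma 3.58.1), DESeq2 size factors, 2 filters, only the libraries compared, a replicate block, GC and length trends, nuclear coding genes, the other vehicle for FSTL3 and leaving out each library; removing both trends, and GC removal without LBP replicate 2, were added after seeing the data.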

Additional observations from a re-analysis of the deposited data

Results flagged for a closer look

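In groups of 4, the level of a named member in 1 library was flagged where its gap to the nearest other library exceeded Dixon's critical value for 4 samples. Of 105 such tests 4 were flagged, about as many as chance gives at 1 in 20. Slc25a10 was at 72.4 CPM in EPDR1 replicate 2, against 29.7 to 33.4 CPM in the other EPDR1 libraries. In the same library Slc25a34 was at 6.73 CPM, against 5.14 to 5.17 CPM. Slc25a51 was at 108.6 CPM in EPDR1 replicate 3, against 58.3 to 65.8 CPM. Slc25a13 was at 269.5 CPM in replicate 3 of the vehicle of batch 2, against 282.7 to 284.2 CPM, a gap that is wide only beside the close agreement of the other 3 libraries.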

How the results depend on the processing

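Over the settings other than leaving out 1 library, 45 of 66 counts of called members stayed within 1.5 times the count given, and after EPDR1 every count was 0. After FCN2 (1 as tested) the count was 4 with DESeq2 (761 genes called in all), 10 with only the libraries compared (1409 genes), and 0 with no filter (9 genes), with the GC trend removed (0 genes, 0 with the replicate block, 161 without LBP replicate 2) and with GC and length trends removed (0 genes). After FSTL3 (8) it was 19 with only the libraries compared (7929 genes) and 18 with the GC trend removed and without LBP replicate 2 (7113 genes). After LBP (1) it was 3 with DESeq2 (1188 genes), and 0 with limma-voom (3 genes), no filter (404), only the libraries compared (0), the replicate block alone or with the GC trend removed (11 and 8), the GC trend removed without LBP replicate 2 (45), and GC and length trends removed (694). Between the vehicles (6) it was 16 with only the libraries compared (3962 genes), 3 with the GC trend removed and the replicate block (581), 11 with the GC trend removed and without LBP replicate 2 (2664), and 1 with GC and length trends removed (432). Leaving out each library gave 0 to 0 (EPDR1), 0 to 13 (FCN2), 5 to 15 (FSTL3), 0 to 5 (LBP) and 4 to 14 (vehicles) calls, the highest without LBP replicate 2 for FCN2, FSTL3 and the vehicles and without LBP replicate 3 for LBP. When FSTL3 was compared with the batch 1 vehicle, 3 members called against either vehicle changed sign: Slc25a47 (-0.59), Slc25a22 (-1.11) and Slc25a42 (-0.97). Others called against neither did so too, among them Slc25a10 (-0.70) and Slc25a25 (-0.13). The cause of these changes was not tested. Same-numbered replicates deviated together weakly at most, with correlations of -0.10 to 0.17, against -0.22 to 0.15 for different numbers. For EPDR1 and its vehicle, replicates 2, 3 and 4 gave 0.12, 0.17 and 0.15, above the 0.10 reached by different numbers. For FSTL3 the same-numbered range was 0.04 to 0.08. The labels do not mark equal numbers as pairs, so the main fit had no replicate block. With the replicate block the counts were 0 (EPDR1), 1 (FCN2), 9 (FSTL3), 0 (LBP) and 6 (vehicles). That fit lost Slc25a23 after LBP (-0.81, adjusted p = 0.121) and Slc25a51 between the vehicles (0.82, adjusted p = 0.059), and called Slc25a10 after FSTL3 (0.79, adjusted p = 0.0366). Depth limits the 9 members not tested and low genes such as Slc25a34.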
